A study of Homo sapiens with 12 samples.

Results

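The matrix metalloproteinases (MMP), the ADAM and ADAMTS proteases and the tissue inhibitors of metalloproteinases (TIMP) were taken from the gene table by symbol: MMP, ADAM, ADAMTS or TIMP followed directly by a number and at most a letter. Hyphenated names and pseudogenes named with a final P were dropped. The rule found 73 of 58174 genes, of which 24 were MMP, 26 ADAM, 19 ADAMTS and 4 TIMP genes. By the annotation 66 of them were protein-coding and 7 were pseudogenes or loci of that class. RNA was measured by poly(A) RNA sequencing in the human cell line H520 (NCI-H520), which was derived from a squamous carcinoma of the lung, with 3 libraries in each of 4 groups. Cells of the combination group received BLU9931 and palbociclib together, and the other groups were palbociclib alone, BLU9931 alone and control, with each drug at 1 µM and treatment for 72 h. BLU9931 binds covalently to FGFR4, a receptor for fibroblast growth factors, and blocks its kinase. Palbociclib blocks CDK4 and CDK6, the kinases that drive cells out of G1 phase. What the control cells received is not stated, and the results come from a single cell line without stroma.

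MMPs are zinc-dependent proteases that cut collagens and other matrix proteins, either as secreted enzymes or as membrane-type enzymes anchored at the cell surface. ADAM proteases sit in the plasma membrane and release the outer part of growth factors, cytokines, Notch receptors and adhesion proteins, a step known as shedding. ADAMTS proteases are secreted and bind to the matrix, where they trim procollagens, proteoglycans and clotting or cartilage proteins. TIMPs block the active site of MMPs, and TIMP3 also blocks several ADAM and ADAMTS enzymes. In solid tumours much of the MMP protein is made by stromal cells, which are absent from a cell line. RNA levels say nothing on activation, since most of these proteases are made as inactive precursors.

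Levels of single genes across libraries are given as CPM, in which a library's counts are brought to a common size with TMM factors. Where genes are set against each other the levels are TPM, which is also scaled by transcript length. Tests are edgeR's quasi-likelihood F-test on the counts of all 20612 genes that passed a filter on low counts, with a Benjamini-Hochberg adjusted p under 0.05 taken as a call. Log2 changes carry the standard error of the fit (SE). The 3 libraries of a group are not stated to be separate cultures, so the p-values measure only the spread between libraries, which may be technical. Library totals ran from 21730722 to 35786607 counts. Control 1 and palbociclib 3 stood apart from the other 10 libraries, at 67.4 and 71.6 on the second principal component, where the others lay between -32.6 and 5.38. The squamous marker SOX2 was high, with a mean of 565, 577, 568 and 501 CPM in combination, palbociclib, BLU9931 and control libraries. The squamous markers TP63, DSG3, PKP1 and KRT14 had at most 6 counts in any library and KRT17 had 0, so these defining genes were all but absent. Of the 10 squamous markers 5 were tested. In the combination against control 2 rose and 1 fell, beside 15.4% higher and 16.3% lower over all genes. In palbociclib against control 0 rose and 1 fell, beside 10% higher and 10.5% lower over all genes. The 7 leukocyte markers summed to at most 1.84 CPM, and PTPRC, CD3E, TYROBP and AIF1 had at most 2 counts in any library. The 9 fibroblast markers summed to between 4.03 and 5.97 CPM in combination, 5.42 and 8.55 CPM in palbociclib, 13.1 and 14.8 CPM in BLU9931 and 6.44 and 9.48 CPM in control libraries. Most of that sum was COL1A1, while COL3A1, DCN, LUM and FAP had at most 10 counts in a library. The 6 neuroendocrine markers summed to between 55.6 and 71.8 CPM in combination, 47 and 51.6 CPM in palbociclib, 84.3 and 109 CPM in BLU9931 and 69.2 and 81.7 CPM in control libraries, with NEUROD1 at no more than 2 counts in any library. Of these 6, 5 were tested. In the combination against control 2 rose, INSM1 among them, and 1 fell, NCAM1, beside 15.4% higher and 16.3% lower over all genes. In palbociclib against control 1 rose and 2 fell, NCAM1 and SYP, beside 10% higher and 10.5% lower over all genes. NCAM1 averaged 10.6, 13.4, 55 and 46.4 CPM in combination, palbociclib, BLU9931 and control libraries. The part of these markers in the results below was not tested.

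Of the 73 genes, 44 were tested and 29 were not. Of those not tested, 12 had 0 counts in all 12 libraries and the other 17 had at most 14 counts in any library. The tested genes were 10 of 24 MMPs, 16 of 26 ADAMs, 15 of 19 ADAMTS genes and 3 of 4 TIMPs. In some group 36 genes reached a mean of 1 CPM and 21 a mean of 10 CPM. The filter acts on the groups' counts, so counts of calls below speak for the 44 tested genes alone.

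By TPM, ADAM10 led in control cells with 96.8 ± 12.4 TPM (SD, n = 3), followed by ADAM9 with 87.7, ADAM15 with 46.3 and ADAM17 with 44. All 4 are membrane-bound proteases with an intact catalytic site. ADAMTS19, ADAMTS12, ADAMTS18, TIMP2 and MMP2 came next, between 42.9 and 15.6 TPM. MMP2 was the ninth gene in control cells, yet the third in combination cells at 63.2 TPM and the second in palbociclib cells at 75.1 TPM. The summed TPM of the 24 MMPs averaged 90.3 ± 9.82 in combination, 103 ± 23.9 in palbociclib, 52.6 ± 6.77 in BLU9931 and 39.9 ± 3.63 in control libraries (SD, n = 3 each). The summed TPM of the 26 ADAM genes averaged 289 ± 20, 297 ± 18.8, 315 ± 7.14 and 318 ± 6.51 in the same 4 groups. In combination and palbociclib cells most of the MMP difference from control was MMP2, at means of 63.2 and 75.1 TPM against 15.6 TPM. In BLU9931 cells, MMP2 at 22.6 against 15.6 TPM and MMP14 at 10.5 against 6.85 TPM made up most of a smaller difference, and neither gene was called there. The ADAM sum was made up mostly of ADAM10, ADAM9, ADAM15 and ADAM17.

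**Figure D1:**
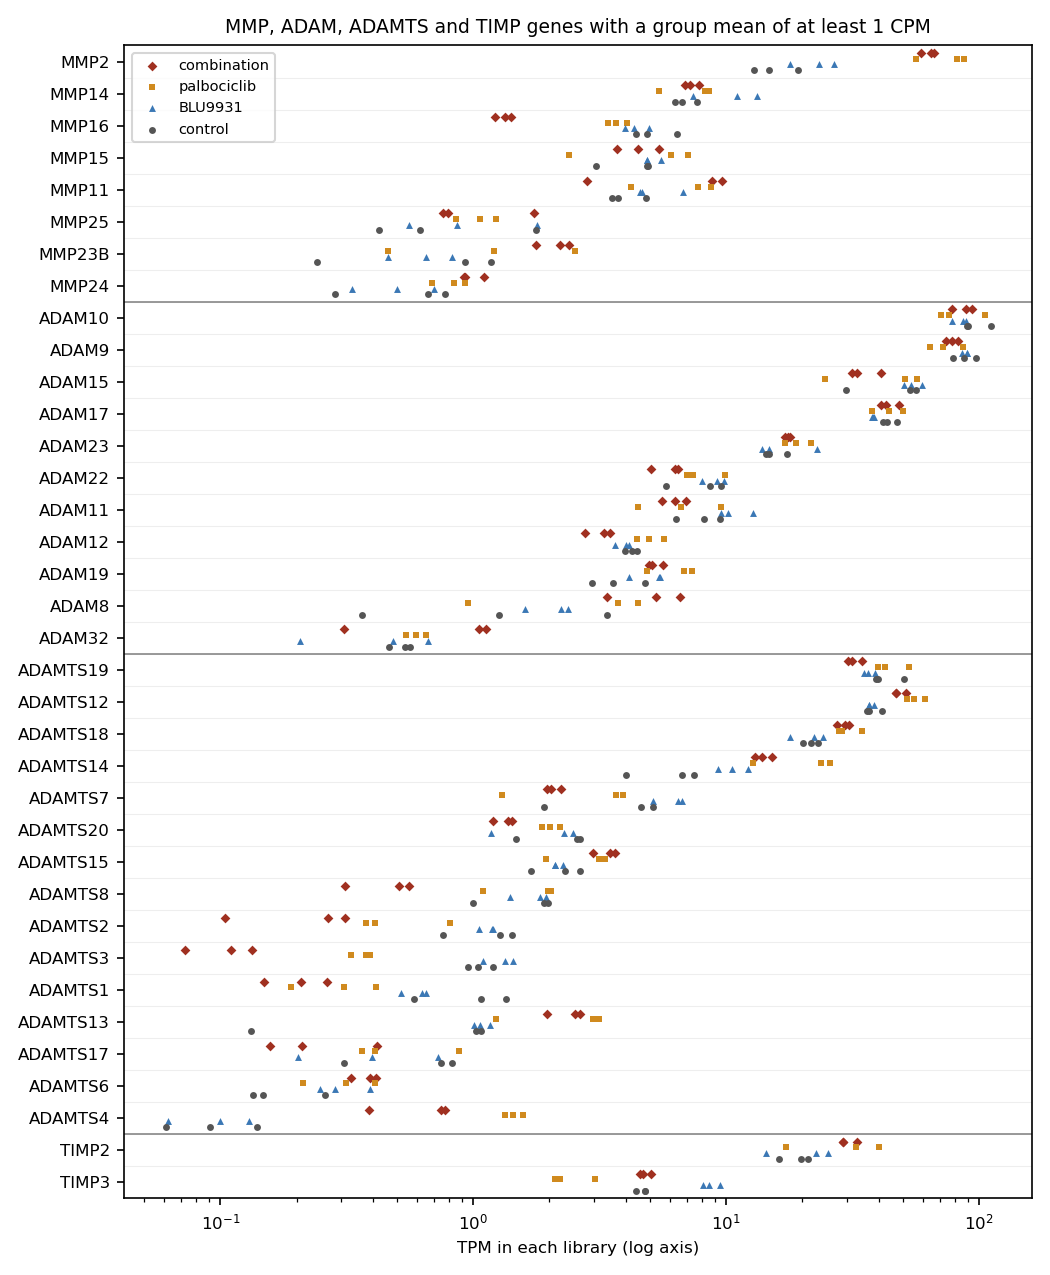
TPM of each library (log axis) for the 36 MMP, ADAM, ADAMTS and TIMP genes that reached 1 CPM on average in some group, by family and by mean control TPM within a family; each mark is a library and marks of a gene run from combination at the top to control at the bottom. MMP2 lies between 56.4 and 87.1 TPM in combination and palbociclib libraries and between 12.9 and 26.6 TPM in the others. ADAM10, ADAM9, ADAM15 and ADAM17 overlap between combination and control libraries.

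In the combination against control, 17 of the 44 tested genes were called (38.6%), 8 higher and 9 lower, beside 31.7% of all 20612 genes (15.4% higher and 16.3% lower). Their log2 changes had a median of 0.142 over the 44 genes, beside 0.0318 over all genes. In palbociclib against control 12 were called (27.3%), 6 higher and 6 lower, beside 20.6% of all genes (10% higher and 10.5% lower). In BLU9931 against control 1 was called (2.27%), which was TIMP3 and was higher, beside 0.18% of all genes (0.141% higher and 0.0388% lower). The combination against palbociclib called 5 (11.4%), 1 higher and 4 lower, beside 3.82% of all genes (0.917% higher and 2.91% lower). The combination against BLU9931 called 15 (34.1%), 6 higher and 9 lower, beside 27% of all genes (13.3% higher and 13.7% lower). The interaction, which tests whether the log2 change of the combination departs from the sum of the single-drug changes, called 1 gene (2.27%), ADAMTS3 with a negative value, beside 1.59% of all genes (0.281% positive and 1.31% negative). The shares of the 44 genes were not tested against those of all genes, and the comparisons share libraries. ADAMTS genes made up most of the calls, with 12 of 15 tested in the combination against control and 8 of 15 in palbociclib against control, against 2 and 0 of 16 ADAM genes and 3 and 3 of 10 MMPs. Without control 1 and palbociclib 3, each of these calls remained with the same sign, and 46 of the 73 genes were tested. The counts were then 22 in the combination and 15 in palbociclib, each against control, beside 38.8% and 28.6% of all genes. They were 2 in BLU9931 against control, 12 in the combination against palbociclib, 27 in the combination against BLU9931 and 8 in the interaction, beside 2.62%, 9.69%, 41.2% and 10% of all genes. These counts include ADAMTS10, not tested with all libraries and at most 0.551 CPM in any. It gave -6.01 ± 1.24 in the combination against control (edgeR adjusted p = 0.00514) and -6.77 ± 1.42 in the interaction (edgeR adjusted p = 0.023). Without the filter the former was also called (-5.76 ± 1.33, edgeR adjusted p = 0.00926).

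**Figure D2:**
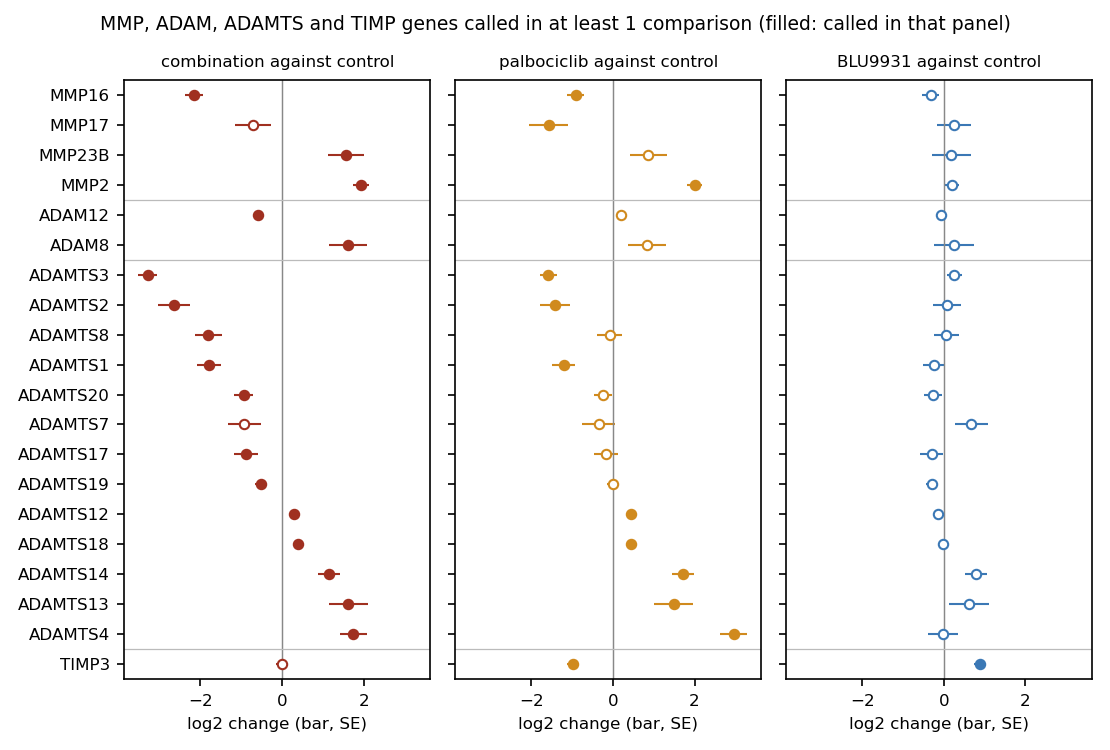
Log2 change (point) with its SE (bar) for the 20 genes called in at least 1 of the 6 comparisons, against control in the combination, with palbociclib and with BLU9931; filled points passed an adjusted p under 0.05 in that panel. ADAMTS3 and ADAMTS2 lie farthest left with the combination, MMP2 and ADAMTS4 lie farthest right with the combination and with palbociclib, and TIMP3 is the filled point with BLU9931.

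The start regions of TIMP3 and of the procollagen N-proteinase genes ADAMTS3, ADAMTS2 and ADAMTS14 are shown because these 4 genes carry the contrasts described below, TIMP3 by its opposite response to the drugs and the others by parting within a family of shared function. The rise of TIMP3 with BLU9931 is the less secure side of that response, as its call was lost in 15 of 23 alternative fits. The windows, from RefSeq on GRCh38.p14, run from 250 bases before to 50 after the annotated start and are printed 5′ to 3′ on the gene's strand. They lie at chr22:32801455-32801754 (+), chr4:72569172-72569471 (-), chr5:179345412-179345711 (-) and chr10:70672256-70672555 (+) in the order below. Capitals mark the GC box of SP1, GGGCGG on either strand, where overlapping copies run together.
TIMP3: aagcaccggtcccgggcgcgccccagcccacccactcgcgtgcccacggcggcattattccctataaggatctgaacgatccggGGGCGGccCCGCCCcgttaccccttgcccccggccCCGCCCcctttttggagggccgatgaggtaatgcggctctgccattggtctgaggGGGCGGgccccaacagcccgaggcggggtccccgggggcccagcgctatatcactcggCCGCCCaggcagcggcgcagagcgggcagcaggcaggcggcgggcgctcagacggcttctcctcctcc
ADAMTS3: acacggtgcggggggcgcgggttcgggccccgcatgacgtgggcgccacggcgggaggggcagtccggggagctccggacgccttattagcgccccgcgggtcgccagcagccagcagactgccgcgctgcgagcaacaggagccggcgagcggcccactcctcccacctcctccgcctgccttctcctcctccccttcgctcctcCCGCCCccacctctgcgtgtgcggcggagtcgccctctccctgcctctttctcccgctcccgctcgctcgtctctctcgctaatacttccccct
ADAMTS2: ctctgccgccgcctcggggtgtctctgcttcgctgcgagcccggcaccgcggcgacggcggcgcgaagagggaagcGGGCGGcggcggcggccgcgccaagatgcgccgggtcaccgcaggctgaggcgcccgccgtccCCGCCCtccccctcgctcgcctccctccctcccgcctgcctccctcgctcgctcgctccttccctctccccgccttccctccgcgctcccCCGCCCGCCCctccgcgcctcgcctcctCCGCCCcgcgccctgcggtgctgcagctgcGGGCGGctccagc
ADAMTS14: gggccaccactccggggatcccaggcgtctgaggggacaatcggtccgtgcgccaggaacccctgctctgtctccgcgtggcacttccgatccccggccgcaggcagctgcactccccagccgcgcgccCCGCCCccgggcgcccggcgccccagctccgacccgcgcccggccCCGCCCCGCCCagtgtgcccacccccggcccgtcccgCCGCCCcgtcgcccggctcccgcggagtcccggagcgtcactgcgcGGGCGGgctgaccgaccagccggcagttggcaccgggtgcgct
The GC box occurred 5, 1, 6 and 5 times in the windows of TIMP3, ADAMTS3, ADAMTS2 and ADAMTS14. It was present in 45% of 35116 promoter windows of the same length and in 26 of the 39 windows found for the 73 genes. A search of both strands found no TATA box (TATAAA), AP-1 site (TGANTCA), cell-cycle homology region (TTTGAA) or E2F site (TTTCCCGC or TTTGGCGC) in the 4 windows. These motifs were present in 11.5%, 7.71%, 15.2%, 1.63% and 0.652% of all windows. A match describes letters and is not a measured binding site, and no match says only that these letters are not in the window. MMP2, MMP16, ADAMTS4 and ADAMTS8 had no window in the table.

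MMP2, the secreted gelatinase that cuts denatured collagen and basement-membrane collagen, rose 3.83-fold with the combination and 4.01-fold with palbociclib, each against control. In bulk RNA a change in the share of cells that express a gene and a change in RNA per cell cannot be told apart, here and below. It lies on chromosome 16 from 55389700 to 55506691 on the forward strand (GRCh38). Its level was 115, 125 and 127 CPM in combination libraries, 156, 115 and 112 CPM in palbociclib libraries, 42.2, 30.6 and 37.1 CPM in BLU9931 libraries and 30.5, 39.7 and 25.6 CPM in control libraries. The groups with palbociclib did not overlap those without it. The log2 change against control was 1.94 ± 0.19 with the combination (SE, edgeR adjusted p = 1.83e-05) and 2.0 ± 0.19 with palbociclib (edgeR adjusted p = 4.74e-05). With BLU9931 it was 0.20 (95% interval -0.20 to 0.60), and the combination against palbociclib gave -0.07 (95% interval -0.47 to 0.33). The calls of MMP2 against control were kept in all 23 alternatives.

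MMP16, a membrane-type MMP, went the other way. It lies on chromosome 8 from 88032009 to 88328025 on the reverse strand. Its level was 7.57, 7.15 and 6.41 CPM in combination libraries, 13.6, 13.2 and 22.8 CPM in palbociclib libraries, 25.3, 25.9 and 23.9 CPM in BLU9931 libraries and 38, 29.6 and 26 CPM in control libraries. Every combination library was below every palbociclib library, and these were below all BLU9931 and control libraries. The log2 change was -2.15 ± 0.22 for the combination against control (edgeR adjusted p = 2.66e-05) and -1.23 ± 0.22 for the combination against palbociclib (edgeR adjusted p = 0.00767). The fall with palbociclib against control was 0.91 on the log2 scale (edgeR adjusted p = 0.0104). On TPM with limma that last call was lost (adjusted p = 0.0921 and 0.109 with pseudocounts of 1 and 0.1), and without control 1 and palbociclib 3 the change was -1.07 ± 0.12. Fitting only the 2 groups compared ended the calls of MMP16 against palbociclib and in palbociclib against control (adjusted p = 0.0671 and 0.0829). The interaction of MMP16 was not called with all libraries, and it passed the test without control 1 and palbociclib 3 (-0.79 ± 0.15, edgeR adjusted p = 0.0108).

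MMP14, the membrane-type protease that activates the MMP2 precursor at the cell surface, was not called in any of the 6 comparisons. Its level was 11, 12.2 and 13.1 CPM in combination, 14.7, 12.9 and 9.9 CPM in palbociclib, 13.7, 11.4 and 14.5 CPM in BLU9931 and 9.57, 10.7 and 11 CPM in control libraries. The groups overlapped except that each BLU9931 library was above each control library, with a log2 difference of 0.34 (95% interval -0.02 to 0.70). MMP23B, a small membrane-anchored MMP, rose with the combination to 1.09, 1.56 and 1.11 CPM, against 0.186, 0.519 and 0.538 CPM in control libraries (log2 change 1.57 ± 0.45, edgeR adjusted p = 0.0198). This call was lost without control 1, without combination 2 and with limma on log2(TPM + 0.1) (adjusted p = 0.0624, 0.078 and 0.0643). Reads of MMP23B cannot be told apart with certainty from its near-identical copy MMP23A or from CDK11B, which it overlaps at up to 104 CPM, and MMP23A was 2.84-fold higher with the combination without a call (edgeR adjusted p = 0.0598). MMP23A passed there with DESeq2 (adjusted p = 0.048), limma on log2(TPM + 1) (adjusted p = 0.0291) and the GC adjustment (edgeR adjusted p = 0.0248), among other fits. It did not pass without control 1 and palbociclib 3 (edgeR adjusted p = 0.0587). MMP17, a membrane-type MMP with a lipid anchor, was the single gene called at a level below 1 CPM, at 0.0671, 0.393 and 0.242 CPM in palbociclib and 0.409, 0.796 and 0.85 CPM in control libraries. Its log2 change was -1.57 ± 0.48 (edgeR adjusted p = 0.0385), and that call was lost in 16 of 23 alternatives, among them leaving out any library but control 1 and palbociclib 2.

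MMP11, also called stromelysin-3 and named here after its values were seen, had 2.54, 8.39 and 9.75 CPM in combination, 8.79, 7.24 and 5.01 CPM in palbociclib, 3.35, 6.55 and 3.44 CPM in BLU9931 and 3.72, 3.74 and 4.13 CPM in control libraries. Palbociclib libraries lay above control libraries, while the combination libraries spread across both. The log2 difference from control was 0.84 in the combination (95% interval -0.09 to 1.77, edgeR adjusted p = 0.156) and 0.86 in palbociclib (95% interval -0.07 to 1.79, edgeR adjusted p = 0.181). Without combination 1 the combination against control was called (1.22 ± 0.31, edgeR adjusted p = 0.0168). MMP11 overlaps CHCHD10, at up to 17.8 CPM on the other strand.

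Most other secreted MMPs best known from tumours were at or near 0. MMP9, the other gelatinase, had at most 7 counts in any library. The 9 MMP genes in the cluster on chromosome 11 between 102520508 and 102955734, which include MMP1, MMP3, MMP7, MMP10 and MMP13, had at most 6 counts in any library, and 4 of them had 0 in all.

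TIMP3, the inhibitor that binds to the matrix and blocks MMPs as well as ADAM10, ADAM17 and ADAMTS4, was the single gene called with BLU9931 alone, and it moved in opposite directions with the 2 drugs. It lies on chromosome 22 from 32801701 to 32863043 on the forward strand. Its level was 11.2, 11.3 and 12.5 CPM in combination libraries, 5.16, 7.12 and 5.5 CPM in palbociclib libraries, 21.4, 20.4 and 23.3 CPM in BLU9931 libraries and 11.2, 12.2 and 12 CPM in control libraries. Palbociclib libraries were all lower and BLU9931 libraries all higher than the rest, and combination and control libraries overlapped. TIMP3 fell by 0.99 ± 0.14 on the log2 scale with palbociclib (edgeR adjusted p = 0.000695) and rose by 0.88 ± 0.14 with BLU9931 (edgeR adjusted p = 0.0381). It was higher in the combination than with palbociclib alone by 0.98 ± 0.14 (edgeR adjusted p = 0.00256, and 0.0543 in a fit of only the 2 groups compared), and lower than with BLU9931 alone, with a log2 change of -0.90 ± 0.14 (edgeR adjusted p = 0.0007). The combination against control gave -0.01 (95% interval -0.32 to 0.29), and the interaction gave 0.10 (95% interval -0.34 to 0.53, edgeR adjusted p = 0.876).

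The rise of TIMP3 with BLU9931 was the least secure of these results. It was lost in 15 of 23 alternatives, among them leaving out any library of control, BLU9931 or combination (adjusted p between 0.0723 and 0.155), although the log2 change stayed between 0.84 and 0.94. Without control 1 and palbociclib 3 together the adjusted p was 0.0173. The summed fibroblast markers were also highest in BLU9931 libraries, with COL1A1 at a mean of 10.6 CPM in BLU9931 and 6.13 CPM in control libraries, and so were the summed neuroendocrine markers, which were lowest in palbociclib libraries. Of the 9 fibroblast markers 4 were tested, with a median log2 change of 0.77 in BLU9931 against control and 0 called, beside 0.18% of all genes. In the combination against BLU9931 0 rose and 2 fell, with a median of -1.31, beside 13.3% higher and 13.7% lower over all genes. In the combination against control 0 rose and 1 fell, beside 15.4% higher and 16.3% lower. Fibroblast markers with 0 counts in all libraries of a group were 2 in BLU9931 and 3 in control, DCN among both. The part of either list in the result was not tested.

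TIMP2, which inhibits MMPs and also bridges MMP14 and the MMP2 precursor, was the most abundant inhibitor and was not called in any comparison with all libraries. Its level was 55.5, 54.2 and 63.5 CPM in combination, 31.3, 74.7 and 63.2 CPM in palbociclib, 25.7, 49.2 and 43.7 CPM in BLU9931 and 31.9, 39.1 and 41.2 CPM in control libraries. The combination libraries were all above the control libraries, with a log2 difference of 0.63 (95% interval -0.02 to 1.28, edgeR adjusted p = 0.132), and the palbociclib libraries spread across both. In a fit of only the 2 groups compared TIMP2 passed in the combination against control (0.61 ± 0.14, edgeR adjusted p = 0.0149). Without palbociclib 1 it passed in palbociclib against control (0.87 ± 0.24, edgeR adjusted p = 0.0356). TIMP1 had at most 19 counts in any library and TIMP4 at most 12. RECK, a membrane-anchored inhibitor of MMPs, averaged 7.47 ± 0.919, 9.08 ± 1.98, 7.25 ± 0.738 and 7.53 ± 0.915 CPM in combination, palbociclib, BLU9931 and control libraries (SD, n = 3 each) and was not called.

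**Figure D3:**
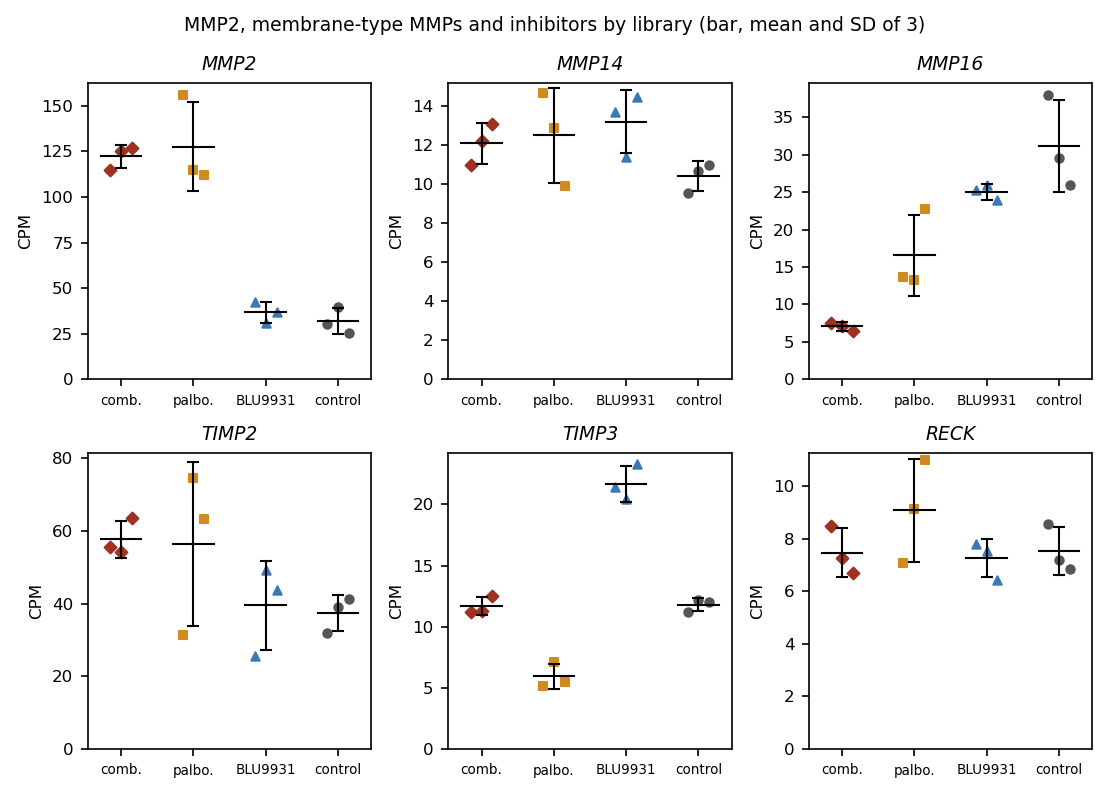
CPM of MMP2, MMP14, MMP16, TIMP2, TIMP3 and RECK in each library, by group; the horizontal line is the mean and the bar the SD of 3 libraries. MMP2 is high and MMP16 low in both groups with palbociclib, and TIMP3 is lowest with palbociclib, highest with BLU9931 and alike in combination and control libraries.

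ADAM10 and ADAM17, the principal sheddases of Notch receptors, cadherins, cytokines and EGF-family ligands, were not called in any comparison. ADAM10 had 442, 471 and 402 CPM in combination, 354, 356 and 535 CPM in palbociclib, 376, 428 and 399 CPM in BLU9931 and 560, 459 and 443 CPM in control libraries. ADAM17 had 96.9, 108 and 92.6 CPM in combination, 86.1, 94.7 and 112 CPM in palbociclib, 86.1, 87.6 and 87.4 CPM in BLU9931 and 109, 102 and 96.8 CPM in control libraries. The highest value of each gene within the palbociclib and the control group was palbociclib 3 and control 1. For the combination against control the log2 differences were -0.15 (95% interval -0.50 to 0.19) for ADAM10 and -0.05 (95% interval -0.29 to 0.20) for ADAM17. Without those 2 libraries ADAM10 passed the test in palbociclib against control, with -0.36 ± 0.08 (edgeR adjusted p = 0.00692). It also passed then in the combination against palbociclib, with 0.30 ± 0.07 (edgeR adjusted p = 0.0296), and in the interaction, with 0.47 ± 0.10 (edgeR adjusted p = 0.0208). ADAM17 did not pass in palbociclib against control.

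ADAM12, which is made as a membrane and as a secreted form and cuts insulin-like growth factor binding proteins, fell with the combination against each other group. Its level was 8.7, 8.35 and 8.41 CPM in combination, 14.8, 14.9 and 14.1 CPM in palbociclib, 11.6, 12.8 and 11.9 CPM in BLU9931 and 11.3, 14.5 and 12.5 CPM in control libraries. The combination libraries lay below all others. The log2 change was -0.59 ± 0.12 against control (edgeR adjusted p = 0.00385), -0.78 ± 0.12 against palbociclib (edgeR adjusted p = 0.00411) and -0.51 ± 0.12 against BLU9931 (edgeR adjusted p = 0.00989), and these calls were lost on TPM with limma (adjusted p between 0.0548 and 0.203). Against a fold of 1.2 the call against BLU9931 was lost too (adjusted p = 0.052). The interaction gave -0.71 (95% interval -1.09 to -0.32, edgeR adjusted p = 0.0779), and it passed without control 1 and palbociclib 3 (-0.66 ± 0.15, edgeR adjusted p = 0.0243).

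ADAM8, a sheddase best known from leukocytes, rose with the combination to 4.26, 5.4 and 5.89 CPM, against 0.67, 1.66 and 2.66 CPM in control libraries. Its log2 change was 1.62 ± 0.47 (edgeR adjusted p = 0.0201), and the call was lost without control 1, control 2, combination 2 or combination 3 (adjusted p between 0.0533 and 0.065) and with limma on log2(TPM + 0.1) (adjusted p = 0.0514). With palbociclib it was at 4.02, 3.78 and 1.17 CPM, a log2 difference from control of 0.83 (95% interval -0.19 to 1.86), which passed without control 1 and palbociclib 3 (0.83 ± 0.24, edgeR adjusted p = 0.0258). The 7 leukocyte markers summed to between 0.782 and 0.982 CPM in combination and 0.67 and 1.84 CPM in control libraries. Among them PTPRC, TYROBP and AIF1 had at most 2 counts in any library. The part of these markers in the result was not tested.

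Among the abundant ADAM genes that were never called, ADAM9 had 149 ± 8.3 CPM in combination and 174 ± 18.3 CPM in control libraries (SD, n = 3 each). Without control 1 and palbociclib 3 it passed the test in palbociclib against control (-0.37 ± 0.08, edgeR adjusted p = 0.00517) and in the combination against BLU9931 (-0.22 ± 0.06, edgeR adjusted p = 0.0189). ADAM11, ADAM22 and ADAM23, which lack a working catalytic site and act as receptors for secreted LGI proteins in the nervous system, were at means between 5.93 and 19.2 TPM in every group. Without those 2 libraries ADAM22 passed in the combination against control (-0.77 ± 0.16, edgeR adjusted p = 0.00379) and against BLU9931 (-0.63 ± 0.15, edgeR adjusted p = 0.00649), and ADAM11 passed against BLU9931 (-0.52 ± 0.14, edgeR adjusted p = 0.0141). ADAM15, a membrane protease that also binds integrins, had 30, 35.1 and 37.5 CPM in combination, 52.9, 44.2 and 23 CPM in palbociclib, 62.7, 57.4 and 56.2 CPM in BLU9931 and 31.9, 59.5 and 55.6 CPM in control libraries. Its lowest values outside the combination were palbociclib 3 and control 1. With those libraries left out the log2 change of ADAM15 in the combination against control was -0.77 ± 0.11 (edgeR adjusted p = 0.000273), and it was -0.52 ± 0.28 with them (edgeR adjusted p = 0.19). With them left out, ADAM15 in the combination also passed against palbociclib and against BLU9931 (-0.51 ± 0.11 and -0.80 ± 0.10, edgeR adjusted p = 0.0167 and 0.000101). ADAM19, which sheds neuregulin, spread from 4.95 to 16.2 CPM within the control group alone, and its log2 difference of 0.87 in the combination was within that spread (95% interval -0.19 to 1.94). In palbociclib it was 0.98 (95% interval -0.08 to 2.04). Without control 3 ADAM19 passed in both (1.55 ± 0.48 and 1.66 ± 0.48, edgeR adjusted p = 0.035 and 0.0395). With limma on log2(TPM + 1) and log2(TPM + 0.1) it passed in palbociclib (adjusted p = 0.0366 and 0.0383). Without control 1 and palbociclib 3 neither passed (edgeR adjusted p = 0.387 and 0.183).

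**Figure D4:**
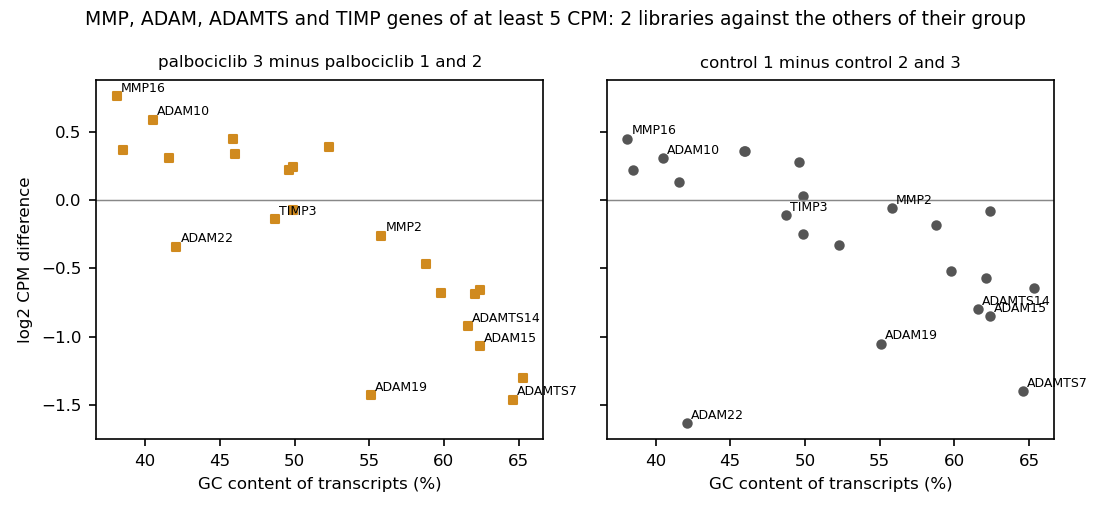
Log2 CPM of palbociclib 3 minus the mean of palbociclib 1 and 2 (left), and of control 1 minus the mean of control 2 and 3 (right), against the GC content of the transcripts, for the 22 genes that averaged 5 CPM or more over all libraries. In both libraries most genes of high GC content lie lower and most of low GC content, ADAM22 excepted, lie higher, with Spearman's rho of -0.848 for palbociclib 3 and -0.665 for control 1.

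The GC content of a gene's transcripts went with how it read in these 2 libraries, as the plot against GC content shows. Over the 22 genes, which share these libraries and are not independent replicates, Spearman's rho was -0.848 for palbociclib 3 and -0.665 for control 1, given as a description. MMP16, at 38.1% GC, read high in both, and ADAMTS14, at 61.6% GC, read low in both. ADAMTS7, at 64.6% GC, had 3.48 CPM in palbociclib 3 against 10.4 and 9.17 CPM in the other palbociclib libraries, and 4.62 CPM in control 1 against 11.5 and 13.1 CPM in the other controls.

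The 3 procollagen N-proteinases, which remove the amino-terminal propeptide from fibrillar procollagens, parted. ADAMTS3, which also takes part in the activation of the lymphatic growth factor VEGF-C, fell most. It lies on chromosome 4 from 72280969 to 72569386 on the reverse strand. Its level was 0.272, 0.391 and 0.458 CPM in combination, 1.14, 1.26 and 1.37 CPM in palbociclib, 3.82, 4.65 and 4.99 CPM in BLU9931 and 3.69, 3.39 and 4.19 CPM in control libraries. All combination libraries were below all palbociclib libraries, which were below all libraries without palbociclib. On the log2 scale ADAMTS3 changed by -3.29 ± 0.23 for the combination against control (edgeR adjusted p = 1.23e-06) and -1.58 ± 0.20 for palbociclib against control (edgeR adjusted p = 0.000269). BLU9931 alone gave 0.26 (95% interval -0.15 to 0.66), yet adding it to palbociclib gave -1.71 ± 0.23 (edgeR adjusted p = 0.00144). The interaction was -1.97 ± 0.30 (edgeR adjusted p = 0.00643) and was kept with each library left out, between -2.16 and -1.82. On TPM with limma it was not called (adjusted p = 0.174 and 0.0886 with pseudocounts of 1 and 0.1), nor was the combination against palbociclib with a pseudocount of 1 (adjusted p = 0.148). ADAMTS3 averaged 1.06 TPM in control cells.

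ADAMTS2, the principal N-proteinase of type I procollagen, fell as well, and ADAMTS14 rose. ADAMTS2 had 0.136, 0.498 and 0.687 CPM in combination, 1.17, 1.18 and 0.849 CPM in palbociclib, 2.97, 3.09 and 2.94 CPM in BLU9931 and 1.97, 3.43 and 3.17 CPM in control libraries. Its log2 change was -2.64 ± 0.39 with the combination (edgeR adjusted p = 0.000375) and -1.42 ± 0.36 with palbociclib (edgeR adjusted p = 0.0161), each against control, and the palbociclib call was lost without control 2, without control 3 and with limma on log2(TPM + 0.1) (adjusted p = 0.0578, 0.0509 and 0.0815). ADAMTS14 had 36.4, 37.9 and 42.6 CPM in combination, 66.5, 69.3 and 35.8 CPM in palbociclib, 26.4, 35 and 29.8 CPM in BLU9931 and 11.7, 19.4 and 21.4 CPM in control libraries. Every treated library was above every control library. The rise was 1.15 ± 0.27 with the combination (edgeR adjusted p = 0.00643) and 1.71 ± 0.27 with palbociclib (edgeR adjusted p = 0.00117), and both calls were kept in all 23 alternatives. With BLU9931 the log2 difference was 0.79 ± 0.26 (edgeR adjusted p = 0.218), and it passed the test without control 1 and palbociclib 3, at 0.58 ± 0.12 (edgeR adjusted p = 0.0408). With those 2 libraries left out the combination against palbociclib was -0.80 ± 0.12 (edgeR adjusted p = 0.00199), the combination against BLU9931 0.34 ± 0.11 (edgeR adjusted p = 0.0284) and the interaction -1.38 ± 0.17 (edgeR adjusted p = 0.00116). The interaction of ADAMTS14 was not called with all libraries, and it was also called with DESeq2 (adjusted p = 0.0185), with the GC adjustment (adjusted p = 0.000364, and 0.000718 with the replicate block as well) and without palbociclib 3 (adjusted p = 0.0137). By TPM, ADAMTS14 averaged 14, 20.7, 10.7 and 6.06 in combination, palbociclib, BLU9931 and control libraries, and ADAMTS2 and ADAMTS3 were between 0.105 and 1.29 in all groups, so the most abundant of the 3 was the one that rose.

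The proteoglycanases, which cut aggrecan, versican and brevican, did not move as a block. ADAMTS4, an aggrecanase, rose to 2.04, 1.49 and 1.93 CPM in combination and 4.69, 4.88 and 3.03 CPM in palbociclib libraries, against 0.335, 0.761 and 0.51 CPM in control libraries. BLU9931 libraries had 0.552, 0.339 and 0.696 CPM. The log2 change was 1.75 ± 0.34 with the combination (edgeR adjusted p = 0.00215) and 2.96 ± 0.33 with palbociclib (edgeR adjusted p = 0.000145), and the difference between them was -1.21 ± 0.30 (edgeR adjusted p = 0.0501), which passed without control 1 and palbociclib 3 (-1.40 ± 0.26, edgeR adjusted p = 0.00789).

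ADAMTS1, an early described member that cuts versican and aggrecan, fell with palbociclib. It had 0.725, 0.427 and 0.589 CPM in combination, 1.17, 0.826 and 0.566 CPM in palbociclib, 1.83, 1.8 and 1.47 CPM in BLU9931 and 1.9, 2.46 and 1.67 CPM in control libraries. ADAMTS1 changed by -1.79 ± 0.30 on the log2 scale with the combination (edgeR adjusted p = 0.000915) and -1.21 ± 0.29 with palbociclib (edgeR adjusted p = 0.0122, and 0.0635 in a fit of only the 2 groups compared), and the groups with palbociclib lay below those without it. Its neighbour on chromosome 21, the aggrecanase gene ADAMTS5, had at most 6 counts in any library.

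ADAMTS8, a secreted protease with weak aggrecan-cutting activity, fell where both drugs were present. It had 0.634, 1.17 and 1.11 CPM in combination, 4.16, 3.34 and 2.3 CPM in palbociclib, 3.06, 3.7 and 4.06 CPM in BLU9931 and 2.16, 4.01 and 4.16 CPM in control libraries. The combination libraries lay below all others, which overlapped. ADAMTS8 changed by -1.81 ± 0.33 on the log2 scale against control (edgeR adjusted p = 0.00142), -1.73 ± 0.33 against palbociclib (edgeR adjusted p = 0.0117) and -1.87 ± 0.33 against BLU9931 (edgeR adjusted p = 0.00141). The call against palbociclib was lost without palbociclib 1, without combination 1 and in a fit of only the 2 groups compared (adjusted p = 0.0506, 0.0624 and 0.0563), and the interaction of -1.79 ± 0.44 was not called (edgeR adjusted p = 0.0777), though it was without control 1 and palbociclib 3 (-1.75 ± 0.34, edgeR adjusted p = 0.0118). The neighbouring versican-cutting gene ADAMTS15, named after its values were seen, had 8.97, 10.3 and 11 CPM in combination and 5.32, 8.27 and 7.14 CPM in control libraries, with a log2 difference of 0.55 that was not called (edgeR adjusted p = 0.0668), and it was called at 0.38 ± 0.13 without control 1 and palbociclib 3 (edgeR adjusted p = 0.0445). ADAMTS20, known in the mouse for cutting versican during pigment cell migration, fell with the combination by 0.94 ± 0.23 on the log2 scale (edgeR adjusted p = 0.00815), to 2.4, 2.67 and 2.19 CPM against 4.91, 4.15 and 4.84 CPM in control libraries, and was not called on TPM with limma (adjusted p = 0.114 and 0.12).

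**Figure D5:**
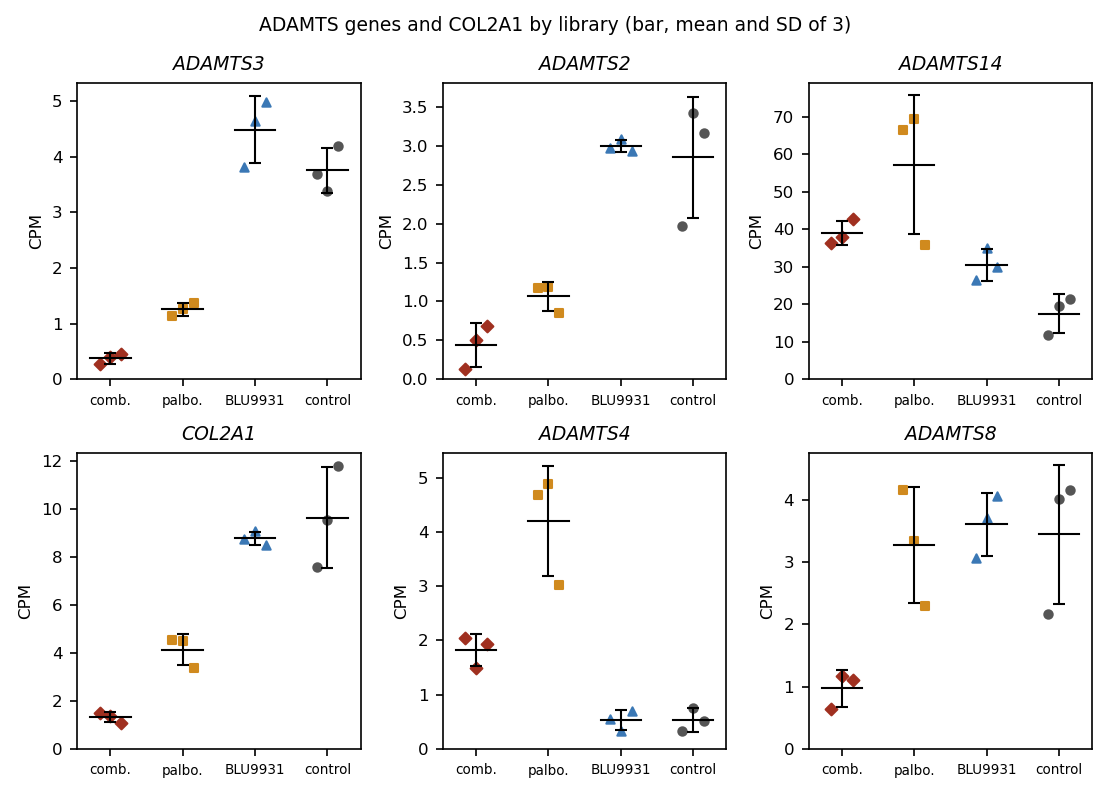
CPM of ADAMTS3, ADAMTS2, ADAMTS14, COL2A1, ADAMTS4 and ADAMTS8 in each library, by group; the horizontal line is the mean and the bar the SD of 3 libraries. ADAMTS3, ADAMTS2 and COL2A1 are lowest in combination libraries, ADAMTS14 and ADAMTS4 highest with palbociclib, and ADAMTS8 is low in combination libraries alone.

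Of the pair that cuts cartilage oligomeric matrix protein, ADAMTS12 rose a little and ADAMTS7 was lower in the combination than with BLU9931. ADAMTS12, at 198, 204 and 196 CPM in combination, 207, 211 and 247 CPM in palbociclib, 150, 148 and 148 CPM in BLU9931 and 166, 163 and 163 CPM in control libraries, did not overlap between the groups with and without palbociclib. ADAMTS12 changed by 0.29 ± 0.09 on the log2 scale with the combination (edgeR adjusted p = 0.0248) and 0.44 ± 0.09 with palbociclib (edgeR adjusted p = 0.00422), each against control. The combination call of ADAMTS12 was lost without any of control 1, 2 or 3, BLU9931 1, or combination 1, 2 or 3 (adjusted p between 0.0525 and 0.0753), and with the replicate block, without the filter and against a fold of 1.2 (adjusted p = 0.0552, 0.1 and 0.36). Its palbociclib call was lost in a fit of only the 2 groups compared and against a fold of 1.2 (adjusted p = 0.066 and 0.0606). ADAMTS7 had 5.57, 4.59 and 5.37 CPM in combination and 17, 15.8 and 13.8 CPM in BLU9931 libraries, a log2 change of -1.58 ± 0.41 (edgeR adjusted p = 0.0136) that was lost without combination 2 (adjusted p = 0.0566). Against control the combination gave -0.92 ± 0.40 for ADAMTS7 (edgeR adjusted p = 0.106), and -1.27 ± 0.14 without control 1 and palbociclib 3 (edgeR adjusted p = 4.14e-05), when the combination against palbociclib and the interaction of ADAMTS7 passed as well (-0.92 ± 0.14 and -1.25 ± 0.20, edgeR adjusted p = 0.00233 and 0.0041). ADAMTS7 overlaps MORF4L1, which reached 381 CPM on the other strand, and the use of strand in counting is not stated.

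ADAMTS13, the protease that cuts von Willebrand factor, rose with palbociclib and with the combination. It had 5.89, 5.58 and 5.04 CPM in combination, 6, 5.98 and 2.91 CPM in palbociclib, 2.63, 2.58 and 2.9 CPM in BLU9931 and 0.372, 2.6 and 2.29 CPM in control libraries. The low value was control 1. The log2 change was 1.63 ± 0.48 with the combination (edgeR adjusted p = 0.0231) and 1.49 ± 0.48 with palbociclib (edgeR adjusted p = 0.0489), and without control 1 and palbociclib 3 it was 1.15 ± 0.15 and 1.28 ± 0.16. The palbociclib call was lost in 13 of 23 alternatives, among them leaving out any library but control 1, control 2 or palbociclib 3, and the combination call was lost without combination 1, without combination 2 and in a fit of only the 2 groups compared (adjusted p = 0.0645, 0.0601 and 0.0529). ADAMTS13 overlaps REXO4, at up to 26 CPM on the other strand.

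Of the members without a settled substrate, ADAMTS18 and ADAMTS19 were abundant and moved little. ADAMTS18 had 65.6, 67.1 and 58.9 CPM in combination and 63.1, 61.9 and 72.9 CPM in palbociclib libraries, against 55.1, 47 and 44 CPM in control libraries. The log2 change of ADAMTS18 was 0.39 ± 0.12 with the combination (edgeR adjusted p = 0.0285) and 0.44 ± 0.12 with palbociclib (edgeR adjusted p = 0.0249). Without control 2 or control 3 both calls were lost, and the combination call was also lost without BLU9931 1, combination 1 or combination 2 (adjusted p between 0.0509 and 0.0936 for the combination and 0.0709 and 0.083 for palbociclib). Both were also lost in a fit of only the 2 groups compared (adjusted p = 0.0608 and 0.124) and against a fold of 1.2 (adjusted p = 0.159 and 0.135), and the combination call with the replicate block and without the filter (adjusted p = 0.0524 and 0.0588). ADAMTS19 fell with the combination to 77.9, 82.9 and 74.3 CPM, against 131, 103 and 101 CPM in control libraries, a log2 change of -0.51 ± 0.14 (edgeR adjusted p = 0.0172). The call was lost without combination 3 and against a fold of 1.2 (adjusted p = 0.0521 and 0.0674). ADAMTS17, linked to the assembly of fibrillin microfibrils, gave -0.88 ± 0.30 with the combination (edgeR adjusted p = 0.0451) at under 1.5 CPM, and this call was lost in 11 of 23 alternatives, among them leaving out control 2, control 3, BLU9931 1, combination 2 or combination 3 (adjusted p between 0.0557 and 0.145).

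The 24 tested genes that were never called had log2 differences between -0.67 and 1.91 in the combination against control and between -0.30 and 1.82 in palbociclib against control. The smallest adjusted p among them was 0.0531 in the combination and 0.1 in palbociclib (edgeR), and no test of equality was made.

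A further 4 lists of genes around these proteases were read in the same fit, and the counts of each stand beside 15.4% of all genes higher and 16.3% lower in the combination against control. Of 22 genes that activate, bind or restrain metalloproteinases, 15 were tested, and with the combination against control 3 rose and 4 fell, with a median log2 change of -0.01 beside 0.03 over all genes. PLAUR, the receptor of the plasminogen activator urokinase, had 0.317, 0.142 and 0.524 CPM in combination, 1.07, 1.85 and 1.09 CPM in palbociclib, 6.92, 4.96 and 6.11 CPM in BLU9931 and 5.47, 4.95 and 4.7 CPM in control libraries. Its log2 change was -3.91 ± 0.36 with the combination and -1.91 ± 0.31 with palbociclib (edgeR adjusted p = 1.2e-05 and 0.00136), both kept in all 23 alternatives. SERPINE2, a secreted inhibitor of urokinase and thrombin, fell with the combination by 2.83 ± 0.28 on the log2 scale (edgeR adjusted p = 2.1e-05). SERPINB5, the serpin called maspin, rose by 3.11 ± 0.30 (edgeR adjusted p = 1.72e-05), to 2.99, 4.09 and 3.37 CPM against 0.447, 0.484 and 0.283 CPM in control libraries. LRP1, the endocytic receptor that clears MMPs and TIMP3 from the cell surface, rose to 62.7, 67.3 and 84.3 CPM in combination, against 13.4, 23 and 25.2 CPM in control libraries (log2 change 1.80 ± 0.28, edgeR adjusted p = 0.000604).

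The 9 partners of ADAM10 and ADAM17, which are tetraspanins, inactive rhomboids and FRMD8, were all tested, and with the combination against control 4 rose and 0 fell, beside 15.4% higher and 16.3% lower over all genes, with a median of 0.47 beside 0.03 over all genes. RHBDF1, an inactive rhomboid that carries ADAM17 to the surface, rose by 1.61 ± 0.30 on the log2 scale (edgeR adjusted p = 0.00169), to 6.84, 7.57 and 7.2 CPM against 1.53, 2.94 and 2.58 CPM in control libraries. TSPAN10 and TSPAN15, tetraspanins that escort ADAM10, rose by 1.22 ± 0.26 and 0.62 ± 0.14 (edgeR adjusted p = 0.00455 and 0.00652). FRMD8, which stabilises the complex of inactive rhomboid and ADAM17, rose by 1.21 ± 0.35 (edgeR adjusted p = 0.022), a call lost without control 1, control 2 or combination 2 (adjusted p between 0.0513 and 0.116). The call of FRMD8 was also lost with the GC adjustment (0.91, adjusted p = 0.122), with block and GC adjustment (0.93, adjusted p = 0.113) and with control 1 and palbociclib 3 left out (0.97, adjusted p = 0.103). The proteases themselves, ADAM10 and ADAM17, were not called in that comparison.

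Of 25 substrates of these sheddases, 21 were tested, and 7 rose and 3 fell with the combination against control, with a median of 0.22 beside 0.03 over all genes (of which 15.4% rose and 16.3% fell). NOTCH2, a Notch receptor, fell with a log2 change of -0.99 ± 0.09 (edgeR adjusted p = 9.51e-06), to 153, 162 and 169 CPM against 291, 336 and 337 CPM in control libraries. The Notch ligands parted, as JAG1 fell by 0.71 ± 0.10 (edgeR adjusted p = 0.000346) and DLL1 rose by 1.96 ± 0.23 (edgeR adjusted p = 7.79e-05). AREG, the EGF-family ligand amphiregulin released by ADAM17, rose by 1.82 ± 0.17 (edgeR adjusted p = 1.28e-05), to 4.03, 4.34 and 4.32 CPM against 1.3, 1 and 1.27 CPM in control libraries. Each of these 4 genes was also called with palbociclib alone and with the same sign.

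Of 15 procollagens and other substrates of ADAMTS proteases, 9 were tested, and 3 rose and 3 fell with the combination against control, with a median of -0.52 beside 0.03 over all genes (of which 15.4% rose and 16.3% fell). COL2A1, the cartilage procollagen, had 1.5, 1.39 and 1.08 CPM in combination, 4.53, 4.48 and 3.39 CPM in palbociclib, 8.74, 9.06 and 8.5 CPM in BLU9931 and 7.59, 9.52 and 11.8 CPM in control libraries. Its log2 change was -2.87 ± 0.21 with the combination (edgeR adjusted p = 2.14e-06), and its interaction of -1.51 ± 0.28 (edgeR adjusted p = 0.0225) was lost without 8 of the 12 libraries in turn (adjusted p between 0.0544 and 0.0694), all but control 1, control 3, palbociclib 3 and combination 1. The interaction of COL2A1 was also lost with limma on log2(TPM + 1) and log2(TPM + 0.1) (adjusted p = 0.301 and 0.254) and with the replicate block (edgeR adjusted p = 0.0782). FBN2, a microfibril protein, fell by 0.83 ± 0.07 on the log2 scale (edgeR adjusted p = 5.76e-06). LTBP1, which holds latent TGF-beta in the matrix, fell by 0.90 ± 0.11 (edgeR adjusted p = 9.74e-05), to 15.8, 16.6 and 18.8 CPM in combination, against 34.3, 33.7 and 34.2 CPM in palbociclib and 33.4, 32.4 and 29.7 CPM in control libraries. Its interaction of -1.13 ± 0.16 (edgeR adjusted p = 0.00378) was kept with each library left out. BCAN, the proteoglycan brevican, rose by 1.53 ± 0.27 (edgeR adjusted p = 0.00123).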

How the data were processed

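The 12 libraries are 3 each of combination, palbociclib, BLU9931 and control H520 cells. The deposited table gives a count, a TPM and an FPKM value per gene and library. Counts carry that name per the file headers, and are whole numbers with a different total in each library. TPM (transcripts scaled to a fixed total per library, by the authors) has its name from the file headers and served for levels between genes. FPKM, which the authors also deposited, was not used here. Per the submitters' processing notes the tools included HISAT2 2.0, StringTie 1.3.3b, Trimmomatic 0.36 and bedtools 2.26.0, with no roles given. The same notes give the mouse build mm9, whereas the gene IDs are human. Of the 73 genes, 72 have the same start and end in GENCODE 29, so positions are on GRCh38. How reads were assigned to genes, and whether strand was used, is not given in the sources used here.

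From the counts, edgeR 4.0.16 in R 4.3.3 (filterByExpr, TMM scaling, robust glmQLFit, two-sided glmQLFTest) fitted all 12 libraries with a term per group, with 8 residual degrees of freedom. P-values were adjusted by Benjamini-Hochberg over 20612 genes in each of 6 comparisons. A log2 change is the first named group minus the second, and its SE is the change divided by the root of the F statistic. The 23 alternatives used limma 3.58.1, DESeq2 1.42.0, other scalings and filters, a GC adjustment and left-out libraries. Tables came from pandas 2.3.3 and numpy 2.4.6 and plots from matplotlib 3.10.9, with scipy 1.17.1, under Python 3.11.15. The code was tested on simulated counts.

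The genes, the lists and the rule for named genes were chosen with earlier results of these data known. Named were a panel (MMP2, MMP9, MMP14, ADAM10, ADAM17, TIMP1, TIMP2 and TIMP3), every other gene called in at least 1 comparison with a group mean of 1 CPM or more, up to 6 uncalled genes of high level, and up to 4 called genes per list by adjusted p in the combination. Libraries were counted singly, because those of a group differed beyond counting error (chi-square divided by its degrees of freedom at least 15.6).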

Additional observations from a re-analysis of the deposited data

Results flagged for a closer look

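ADAMTS3 was picked out because the effect of BLU9931 differed with palbociclib present or absent by a test of the difference itself. The log2 change from adding BLU9931 was -1.71 ± 0.23 in cells with palbociclib and 0.26 ± 0.18 in cells without it (SE of the fit). The interaction of BLU9931 and palbociclib for ADAMTS3 was -1.97 (edgeR adjusted p = 0.00643), with a 95% interval of -2.62 to -1.32. Its groups of 3 libraries were not tested for single samples that stand apart.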

How the results depend on the processing

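Across the 23 alternatives the calls of MMP2 against control, of ADAMTS14 against control and of ADAMTS3 in the combination against control were each kept. Of 51 called comparisons of 20 genes, 21 kept their call in every alternative and 33 with each library left out in turn. Deviations of same-numbered libraries correlated between -0.364 and 0.168 and those of other pairs between -0.277 and 0.464. These values do not settle whether replicate numbers pair the libraries, since the highest was between control 1 and palbociclib 3, which stood apart. With the replicate block the genes called were 15 in the combination against control, 10 in palbociclib against control, 0 in BLU9931 against control, 5 in the combination against palbociclib, 11 in the combination against BLU9931 and 1 in the interaction, beside 27.2%, 15.7%, 0.0097%, 2.34%, 22.7% and 0.689% of all genes. Leaving out each library in turn gave 12 to 21, 9 to 14, 0 to 1, 4 to 8, 11 to 22 and 1 to 6 genes in the same order, beside 24.1% to 37%, 14% to 26.8%, 0.00469% to 1.86%, 2.06% to 4.45%, 19.3% to 32.2% and 0.694% to 4.64% of all genes. Without control 1 the combination against palbociclib called 8 (4.45% of all genes), and without palbociclib 3 the interaction called 6 (4.64%). Fitting only the 2 groups compared called 6 in palbociclib against control, 0 in BLU9931 against control, 2 in the combination against palbociclib and 26 in the combination against BLU9931, beside 9.48%, 0.0313%, 1.54% and 41.8% of all genes. With DESeq2 the combination against palbociclib called 8 (6.36% of all genes) and the interaction 4 (3.97%). On log2(TPM + 1) and log2(TPM + 0.1) with limma BLU9931 against control called 0 (0.107% and 0.165% of all genes) and the interaction 0 (1.08% and 1.14%). Without the filter BLU9931 against control called 0 (0.0426%). Against a fold of 1.2 BLU9931 against control called 0 (0.0534%) and the combination against BLU9931 called 9 (19.3%). With the GC adjustment BLU9931 against control called 2, the combination against palbociclib 12, the combination against BLU9931 24 and the interaction 6, beside 3.68%, 11.3%, 41.4% and 8.62% of all genes, and with the replicate block and the GC adjustment together these counts were 2, 9, 23 and 5, beside 2.1%, 9.12%, 39.2% and 6.72%. With control 1 and palbociclib 3 both left out they were 2, 12, 27 and 8, and 2.62%, 9.69%, 41.2% and 10% of all genes were called. The causes of these shifts were not tested. Signs turned for uncalled differences near 0. In the combination against control ADAM10 was 0.02 with the GC adjustment, alone or with the block. ADAM17 was 0.03 with library totals, 0.09 with the GC adjustment and 0.10 with the block as well, and 0.01 in palbociclib with either GC fit. MMP14 was -0.03 and -0.02 in the combination with these GC fits. TIMP2 in BLU9931 was -0.03 with block and GC adjustment, -0.10 to 0.32 with each library left out in turn (-0.02 without control 1 and -0.10 without BLU9931 2) and -0.02 with control 1 and palbociclib 3 left out. With library totals the median change of all genes was at most 0.11. Genes under 1 CPM rest on few counts, which limits, among others, ADAMTS1, ADAMTS2, ADAMTS3 and PLAUR in the combination. In control cells it limits MMP23B, ADAMTS4 and SERPINB5, so the size of their rises is uncertain, and ADAMTS4 was as low in BLU9931 cells.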
